A study of Drosophila melanogaster with 6 samples.

Results

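The Daisho and Baramicin genes *Dso1*, *Dso2*, *BaraA1* and *IMPPP* were followed in heads of adult *Drosophila* males 4 hr after penetrating traumatic brain injury (PTBI). All 4 genes were found by identifier or by current or older symbol among the 367 genes of the deposited expression table, where they stand as *IM4* (*Dso1*, FBgn0040653), *IM14* (*Dso2*, FBgn0067905), *CG33470* (*BaraA1*, FBgn0053470) and *IMPPP* (FBgn0283462). RefSeq gives *IMPPP* as an older name of *BaraA2*, and the name *IMPPP* is kept here. Bulk RNA-Seq covered 3 samples of injured heads and 3 samples of uninjured heads, each a pool of about 100 to 120 heads. The flies of both groups were the progeny of *w; UAS-mCD8-GFP;; OK107-GAL4*, crossed (X) to *yw*. OK107-GAL4 is known to drive expression in the mushroom body, here of the membrane-bound GFP. Flies were young, taken up to 6 hr after eclosion. Injured flies were anaesthetized with CO2 and both hemispheres of the central brain were pierced with a needle sterilized in ethanol. The controls were of the same age and sex and had no injury. The sources used here do not say whether controls were anaesthetized, or whether a replicate number marks a shared day.

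Both families encode small secreted peptides that belong to the immune response of the fly. Toll signalling, which runs through the NF-κB factor Dif in adults, is known to raise their transcripts in the fat body, from where the peptides pass into the haemolymph. The Daisho peptides Dso1 and Dso2 are short and are known for defence against filamentous fungi. *BaraA1* and *IMPPP* each encode a Baramicin precursor, a polyprotein that is cut into several peptides, with a known role in defence against fungi.

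The table holds RPKM values (reads scaled by the length of the gene and by the size of the library), and only for genes that passed 2 limits set by the authors, a change of 2-fold and an adjusted p value under 0.05. A gene outside the table is called not listed and has no value here. The library sizes implied by the RPKM steps were 24.3 to 35.2 M reads (M for mega) after PTBI and 26.5 to 36.2 M reads in controls. Because a listed gene had to differ between these samples, a test on the same samples is no independent evidence that it changed. None of the 10 haemocyte, 5 neuronal and 7 eye and head markers looked up was listed, so the tissue label could not be checked against them.

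The 4 genes lie on chromosome arm 2R as 2 neighbouring pairs, 7.46 Mb apart (BDGP6, Ensembl 115 annotation). *Dso1* (20868496 to 20869321, minus strand) and *Dso2* (20870392 to 20870678, plus strand) point away from each other, and their start sites are 1071 bases apart with no annotated gene between them. *Dso1* has 42 codons and *Dso2* has 46 codons. *Dso1* has 2 annotated transcripts that share the coding part and differ in the length of the 3′ UTR, which makes up most of its 767 bases of exon. *Dso2* has 1 transcript with 223 bases of exon. *IMPPP* (13407011 to 13408358) and *BaraA1* (13411739 to 13413085) both lie on the plus strand, with starts 4728 bases apart. They are annotated with 257 codons each and with 1160 and 1159 bases of exon. *IMPPP* and *BaraA1* thus have coding parts of equal length. At the 3′ end, 272 exon bases of *IMPPP* overlap *CG18278* on the opposite strand, and 272 exon bases of *BaraA1* overlap *CG30059*. The library kit keeps the strand, but no source says whether the counting used it, so reads of these overlaps may be shared.

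**Figure D1:**
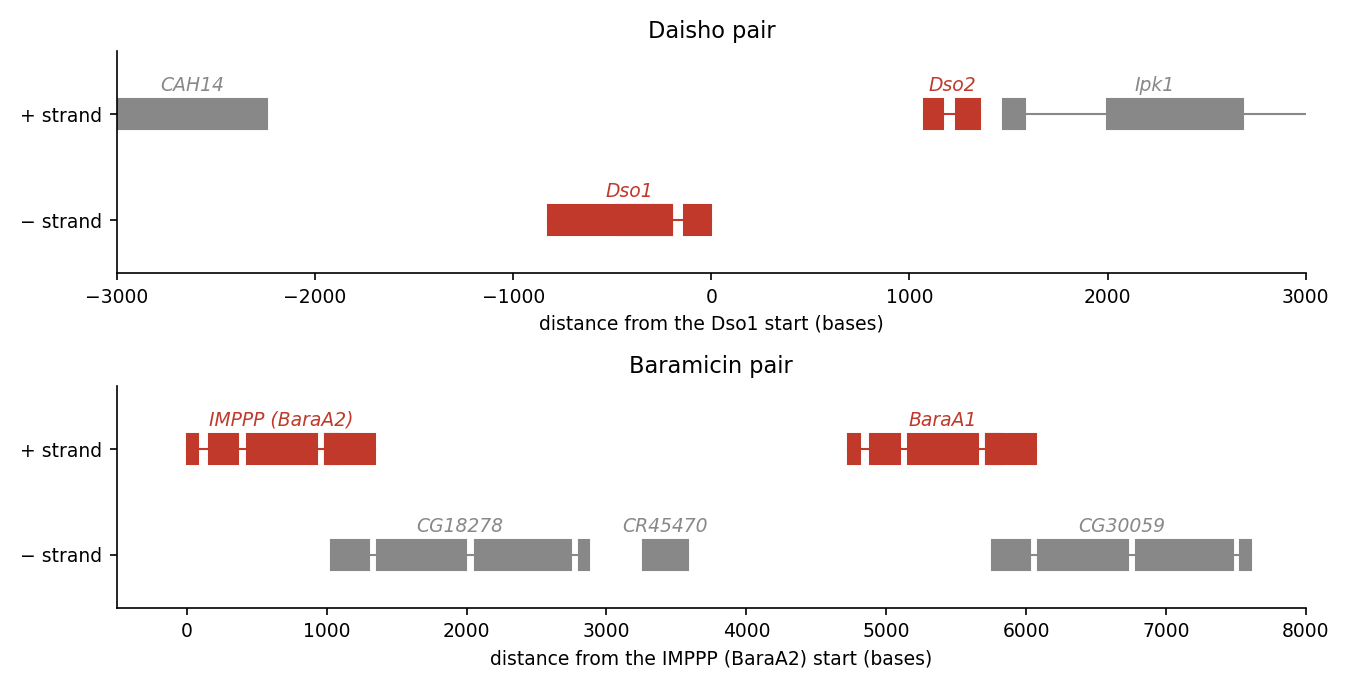
Maps of the Daisho pair (top) and the Baramicin pair (bottom), with boxes for exons, lines for introns, and the distance in bases from the start of *Dso1* or *IMPPP* on the x axis. The red genes are listed and the grey neighbours are not, and the starts lie 1071 bases (Daisho) and 4728 bases (Baramicin) apart.

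*Dso1* had the highest RPKM, a level per length, of the 4 genes in every sample. It was at 3258, 2787 and 3139 RPKM in PTBI replicates 1 to 3 and at 961, 883 and 829 RPKM in uninjured replicates 1 to 3. The samples within a group were close together and the groups were far apart, with the lowest PTBI sample 2.90-fold above the highest control. The PTBI mean of 3061 ± 245 RPKM was 3.44-fold higher than the control mean of 891 ± 66.1 RPKM (SD, n = 3 per group), the smallest ratio of the 4 genes. By limma on log2(RPKM + 1) the log2 difference was 1.78, with a standard error of 0.11 (adjusted p = 2.8e-05).

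*Dso2*, its neighbour, was at 2214, 2038 and 1687 RPKM after PTBI and at 481, 382 and 446 RPKM in controls, in the order of the replicates. All PTBI samples were above all controls, by 3.51-fold or more. Its PTBI mean of 1980 ± 268 RPKM was 4.54-fold the control mean of 436 ± 50.1 RPKM (SD, n = 3 per group). The log2 difference by limma on the same scale was 2.18, with a standard error of 0.14 (adjusted p = 3.1e-05). *Dso2* is the shortest of the 4 genes, so that reads of 50 bases have few places to start in it and its RPKM may be too low beside those of longer genes.

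*IMPPP* was at 1409, 1636 and 2082 RPKM after PTBI and at 304, 388 and 316 RPKM in controls. PTBI replicate 3 was the highest injured sample and uninjured replicate 2 the highest control. The PTBI mean of 1709 ± 342 RPKM was 5.09-fold higher than the 336 ± 45.6 RPKM of controls (SD, n = 3 per group), the largest ratio of the 4, and every PTBI sample was at least 3.63-fold above every control. The log2 difference by limma, again on log2(RPKM + 1), was 2.33 with a standard error of 0.17 (adjusted p = 4.5e-05).

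In the deposited values *BaraA1* followed the same order of samples at a much lower level. How reads that map to both *IMPPP* and *BaraA1* were counted is not stated, so this level is uncertain. It was at 103, 116 and 159 RPKM after PTBI and at 22.6, 29.4 and 23.8 RPKM in controls. The PTBI mean of 126 ± 29.4 RPKM was 4.99-fold higher than the control mean of 25.2 ± 3.63 RPKM (SD, n = 3 per group). The lowest PTBI sample was 3.50-fold above the highest control. By limma on log2(RPKM + 1) the log2 difference was 2.26, with a standard error of 0.19 (adjusted p = 6.1e-05).

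**Figure D2:**
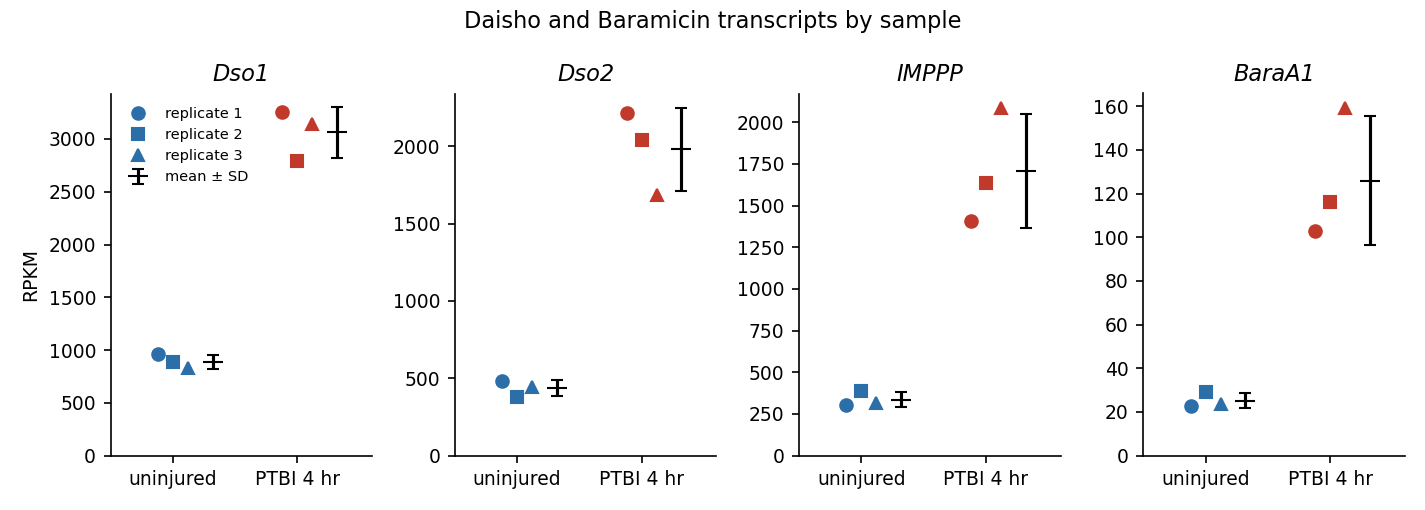
RPKM of *Dso1*, *Dso2*, *IMPPP* and *BaraA1* in each sample, with circles, squares and triangles for replicates 1, 2 and 3 and a black bar for the mean ± SD of 3 samples. All panels start at 0 and have scales of their own, and in each the 3 PTBI samples lie above the 3 uninjured samples.

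Thus all 4 members were called higher by limma, with Benjamini-Hochberg adjustment over the 367 listed genes, where 67.6% of the listed genes were called higher in the same fit. None of the 4 had overlapping groups, which holds for 100% of the listed genes. Both counts follow from the way the table was made, and nothing about these genes is read from them. A two-sided exact permutation test of a single gene gave p = 0.1 for each, the smallest p that 3 samples against 3 can give. The median of the listed genes was 0.66 higher (log2) after PTBI. With this median taken off each sample, the log2 fold changes of the members were 1.12 for *Dso1*, 1.52 for *Dso2*, 1.60 for *BaraA1* and 1.67 for *IMPPP*. All 4 were still called, while the share of higher calls among all calls over the listed genes went from 70.1% to 56.1%. More genes were listed as higher (259) than as lower (108), so the median taken off holds selected change. The centred values are therefore not corrected fold changes. Over the listed genes, same-numbered samples deviated together weakly (correlations of 0.24, 0.12 and 0.16). With the replicate number as a block the 4 members were called as well.

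The RPKM and exon lengths gave back whole reads for all 4 genes in all 6 samples. *BaraA1*, with the fewest reads of the 4 genes in controls and after PTBI, was read 3277 to 6481 times in PTBI samples and 731 to 1231 times in controls, and *Dso1* 52037 to 84668 times and 16880 to 24484 times. In reads, without regard to length, *IMPPP* (84948) was level with *Dso1* (84668) in PTBI replicate 3, while *Dso1* had more reads in the other 5 samples. Counting error for the smallest of these counts is 3.70%, well below the 14.4% coefficient of variation of *BaraA1* among controls. The reads of the 4 genes were also summed as a share of the library size implied by the RPKM steps. This share was 0.475%, 0.462% and 0.538% in PTBI replicates 1 to 3 and 0.122%, 0.125% and 0.113% in controls. It was thus 4.10-fold larger after PTBI, at 0.492 ± 0.0408% against 0.120 ± 0.00618% (SD, n = 3 per group).

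The order of the mean levels, set per length in RPKM, was the same in both groups, with *Dso1* first, then *Dso2*, *IMPPP* and *BaraA1*. *Dso2* and *IMPPP*, next to each other in this order, overlapped in both groups, and *IMPPP* was above *Dso2* in PTBI replicate 3 and in uninjured replicate 2. *Dso1* lay above *Dso2*, and *IMPPP* above *BaraA1*, in every sample. The distance between the Daisho genes depends on the length used. With the 49 bases in which no full read can start taken off each exon length, an alternative chosen after seeing the data, *Dso2* stood at 2537 ± 344 RPKM and *Dso1* at 3270 ± 262 RPKM (SD, n = 3) after PTBI. If all *Dso1* reads came from its short isoform of 418 bases, also tried after seeing the data, *Dso1* would stand at 5617 ± 450 RPKM (SD, n = 3). The order of the means stayed the same in both cases.

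Over the full annotated exon lengths, *Dso1* had the third highest mean RPKM of the listed genes after PTBI, behind the Bomanin genes *BomS2* (4024 ± 93.0 RPKM) and *BomS1* (3401 ± 501 RPKM; SD, n = 3). In controls it was second to *BomS2* (959 ± 45.6 RPKM, SD, n = 3). *Dso2* was sixth and *IMPPP* eighth after PTBI. These ranks depend on the lengths used: over its short isoform alone *Dso1* (5617 RPKM) would stand above *BomS2*.

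The Baramicin copies kept a nearly fixed proportion. The RPKM of *IMPPP* was 13.7, 14.1 and 13.1 times that of *BaraA1* in PTBI replicates 1 to 3 and 13.4, 13.2 and 13.3 times in the controls. The control values lay inside the range of the injured ones. Of the reads given to the pair, *BaraA1* took 6.79% (95% Wilson interval 6.58 to 7.01), 6.62% (6.41 to 6.84) and 7.09% (6.92 to 7.26) after PTBI. In the controls it took 6.92% (6.46 to 7.40), 7.03% (6.66 to 7.42) and 6.99% (6.52 to 7.49). These intervals cover counting error only, and among all 6 samples just PTBI replicates 2 and 3 had intervals that do not touch. The log2 ratio of *IMPPP* to *BaraA1* differed by 0.03 between the groups (standard error 0.03, n = 3 per group, two-sided exact permutation p = 0.4, adjusted p = 0.6 over 6 pairs of members). No source says how reads that map to both copies were counted, so the split between *IMPPP* and *BaraA1* is uncertain, and so are their separate levels.

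Between the Daisho genes the ratio varied more among samples than between the Baramicin copies, whose split is uncertain. The ratio of *Dso1* to *Dso2* was 1.47, 1.37 and 1.86 after PTBI and 2.00, 2.31 and 1.86 in controls. The ratio was lower in PTBI replicates 1 and 2 than in any control, while PTBI replicate 3 and uninjured replicate 3 had almost the same value. The log2 ratio differed by -0.40 between the groups (standard error 0.16, n = 3 per group, two-sided exact permutation p = 0.2, adjusted p = 0.4 over 6 pairs). Since 3 samples against 3 cannot give a p under 0.1, for this and every other pair of members the test could not have passed 0.05, and its p does not decide whether a ratio differed.

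Across the families, the ratio of group means was 5.09 for *IMPPP* and 3.44 for *Dso1*. The ratio of *IMPPP* to *Dso1* was 0.432, 0.587 and 0.663 after PTBI and 0.316, 0.440 and 0.381 in controls, higher after PTBI in 3 of 3 same-numbered pairs. PTBI replicate 1 lay just below uninjured replicate 2, so the groups overlapped. The log2 difference was 0.56 (standard error 0.23, n = 3 per group, two-sided exact permutation p = 0.2, adjusted p = 0.4). *BaraA1* against *Dso1* gave 0.52 (standard error 0.25, n = 3 per group, two-sided exact permutation p = 0.2, adjusted p = 0.4), higher in 3 of 3 same-numbered pairs. As *IMPPP* and *BaraA1* kept a nearly fixed proportion, this is not a separate result. *Dso1* over *Dso2* was higher after PTBI in 1 of 3 same-numbered pairs. *IMPPP* over *BaraA1*, *Dso2* over *BaraA1* and *IMPPP* over *Dso2* were higher in 2 of 3. A paired test of 3 pairs cannot give a p under 0.25. *Dso2* stood at 21.6, 17.5 and 10.6 times *BaraA1* after PTBI and at 21.3, 13.0 and 18.8 times in controls, a spread within groups that was larger than the change between them (log2 difference -0.12, standard error 0.37). For *IMPPP* against *Dso2* the log2 difference was 0.16 (standard error 0.35). With these errors the 6 comparisons do not show that the 4 genes rose by equal amounts.

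**Figure D3:**
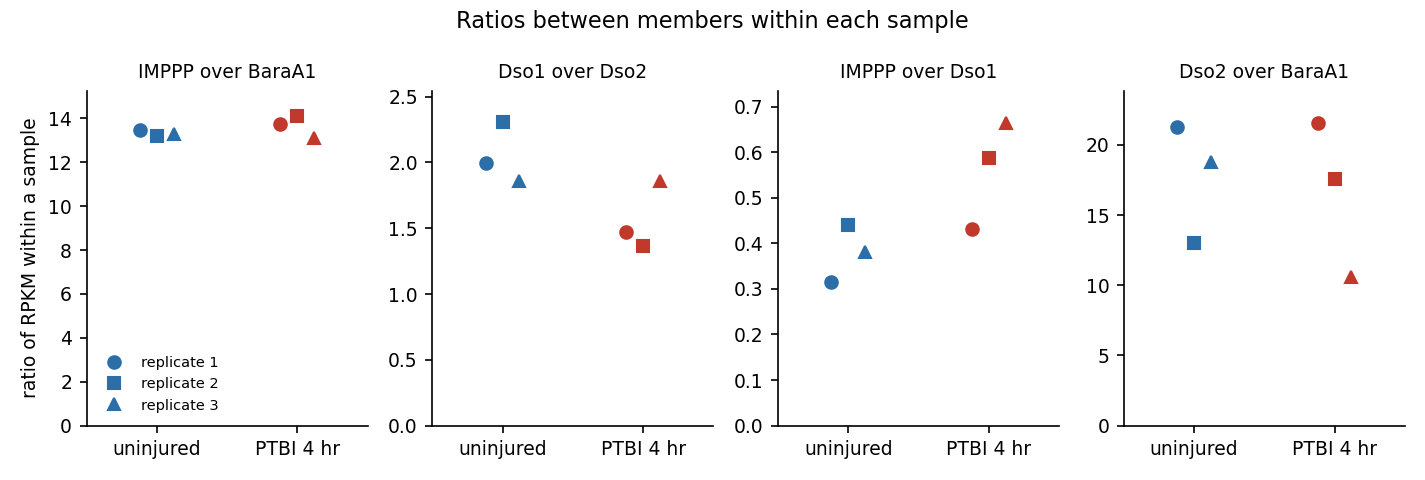
Ratio of RPKM between members within each sample, for 4 of the 6 pairs, with circles, squares and triangles for replicates 1, 2 and 3 and axes that start at 0. *IMPPP* over *BaraA1* stays between 13.1 and 14.1 in all samples, whereas *Dso2* over *BaraA1* runs from 10.6 to 21.6.

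The replicates of a group did not rank alike in the families. *IMPPP* and *BaraA1* were highest in PTBI replicate 3, at 122% and 126% of the PTBI mean, and highest among controls in uninjured replicate 2, at 116% and 116% of the control mean. *Dso2* was lowest in these same samples, at 85.2% and 87.6% of its group means. *Dso1* stayed between 91.0% and 108% of its group mean in all 6 samples and stood at 103% and 99.1% in these. PTBI replicate 3 (35.2 M reads) and uninjured replicate 2 (36.2 M reads) were also the deepest libraries of their groups, and the part of depth in this pattern was not tested.

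For each member, the listed genes with the most similar pattern were taken by the Pearson correlation of log2(RPKM + 1) over the 6 samples. All listed genes differ between the groups, so high values are general. Nearest to *BaraA1* was *IMPPP* (r = 0.9996), followed by *BomBc3* (0.9989), a Bomanin gene, and *Bbd* (0.9979), which encodes Bombardier, a protein needed for Bomanin peptides. *IMPPP* had the same genes next to it, *BaraA1*, *BomBc3* (0.9987) and *Bbd* (0.9963). How reads that map to both Baramicin copies were counted is not stated, so the patterns of *IMPPP* and *BaraA1* may not be independent. *BomBc3* and *Bbd* reached 123% and 128% of their mean in PTBI replicate 3. Nearest to *Dso1* were *CG30154* (0.9995), *BomS2* (0.9972) and *BomS3* (0.9957). Nearest to *Dso2* were *CG32354* (0.9972), *CG16978* (0.9956) and the antimicrobial peptide (AMP) gene *Mtk* (0.9954). By this measure *Dso2* was not the gene most like *Dso1* (r = 0.988), although they are neighbours. These correlations are a description over 6 samples of shared libraries.

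**Figure D4:**
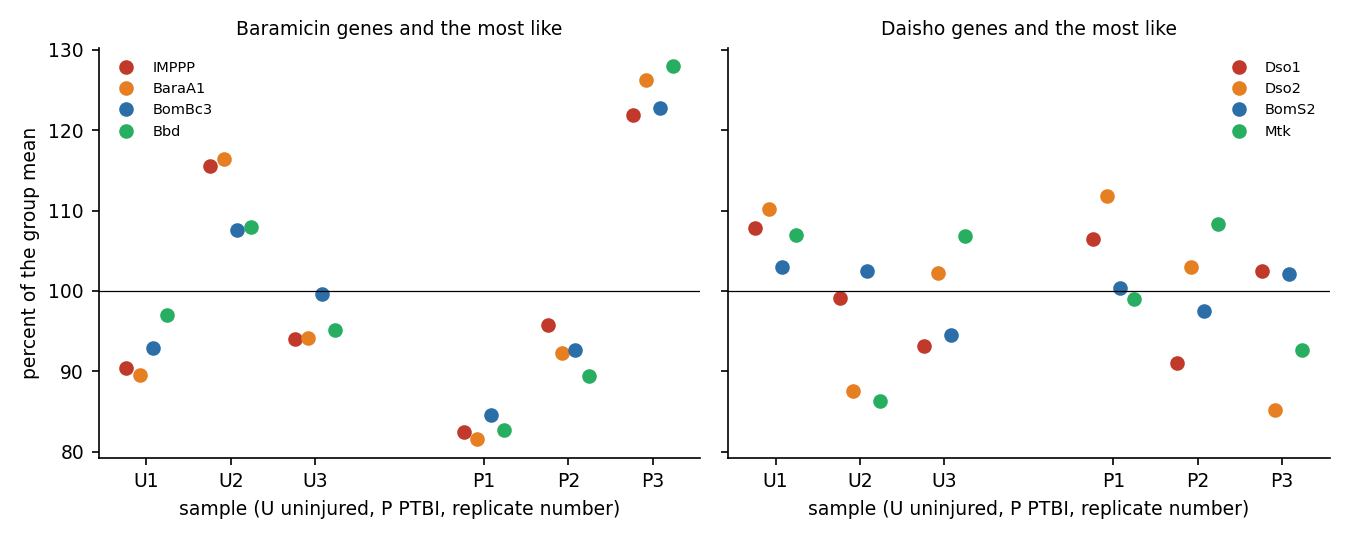
RPKM of each sample as a percent of its group mean (y axis), for the Baramicin genes with *BomBc3* and *Bbd* (left) and the Daisho genes with *BomS2* and *Mtk* (right), with U1 to U3 for uninjured and P1 to P3 for PTBI replicates. The left-hand genes are highest in P3 and in U2, where *Dso2* is lowest among the replicates of its group.

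Of the 6 annotated Daisho and Baramicin genes, the remaining ones, *BaraB* and *BaraC*, which encode other Baramicins, were not listed. Nor were the genes next to the members: *CAH14* beside *Dso1*, *Ipk1*, which starts 112 bases past the end of *Dso2*, the overlapping *CG18278* and *CG30059*, the pseudogene *CR45470* between the Baramicin copies, and *ATP8A* and *CG4744* on their outer sides. A neighbour that is not listed was under 2-fold or did not pass the test of the authors, and its values were not analysed here.

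Other immune genes are given for scale. The ratio of means had a median of 4.76 over the 4 members and of 3.13 over the 259 genes listed as higher. Of these 259 genes, 248 were called higher in the main fit, so a call is no result about a list below. Bomanins are short secreted peptides that are likewise Toll targets. Of 13 genes in the list of Bomanins and *Bbd*, 11 were listed, all called higher, with a median of 3.87. They ran from *BomT3* (2.26-fold) to *BomBc1* (7.89-fold), a range that holds all 4 members. The Toll-side AMP genes *Drs*, *Mtk* and *Mtkl* were all listed and called, with a median of 11.6 and ratios from *Drs* (10.3-fold) to *Mtkl* (13.8-fold). Of 11 Imd-side AMP genes looked up all were called higher, from *AttA* (9.06-fold) to *CecB* (35.0-fold), with a median of 13.4. This list leaves out *Def* (Defensin), which the authors also place among AMP genes controlled mainly by Imd. *Def* was not listed and has no ratio here, so the list is not complete and holds only responding genes. Each AMP gene with a value here had a larger ratio than any of the 4 members, a difference between lists that was not tested. The AMP genes had control means from 1.32 RPKM (*CecB*) to 254 RPKM (*Mtk*). Those of the members ran from 25.2 RPKM (*BaraA1*) to 891 RPKM (*Dso1*). Of 20 Toll pathway genes 4 were listed, all called higher, from *Hayan*, a protease gene (2.19-fold), to *PGRP-SA*, a peptidoglycan receptor gene (11.2-fold). Of 17 Imd pathway genes 3 were listed, all called higher, from *pirk* (2.97-fold), a negative regulator, to *PGRP-SC2* (30.0-fold), a secreted amidase gene. No member of these lists was listed as lower.

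**Figure D5:**
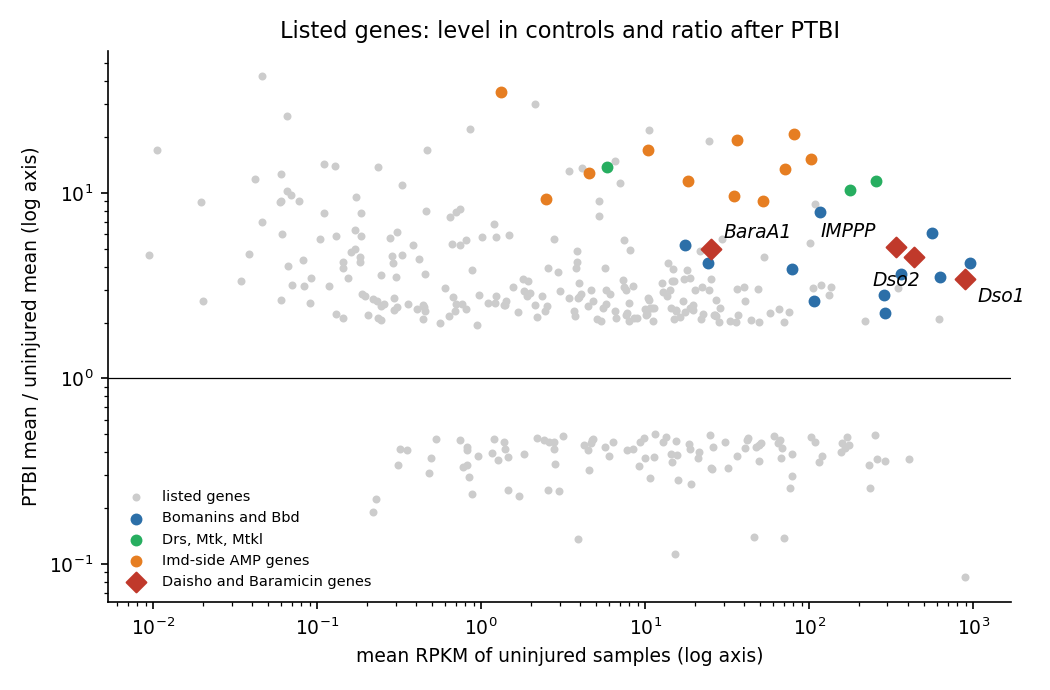
Ratio of the PTBI mean to the uninjured mean (y axis, log) against the mean RPKM of uninjured samples (x axis, log) for 365 listed genes; 2 genes with a mean of 0 in a group are not drawn. The 4 members (red) lie among the Bomanins at ratios of 3.44 to 5.09, below the AMP genes, and *Dso1*, *Dso2* and *IMPPP* are at the high end of control levels.

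In bulk RNA of whole heads, more cells of a type and more RNA per cell cannot be told apart. Of 11 fat body markers, 5 were listed, all as lower and all called: *Lsp2* and *Lsp1beta*, which encode larval storage proteins, *Lsp1alpha*, *fit* and *apolpp*, the gene of a lipid carrier. Their summed level was 136 to 318 RPKM in PTBI samples and 1088 to 1717 RPKM in controls, opposite in direction to the members. *Lsp2* was 11.8-fold lower, the most of the 5. Calls are nearly general here, as 106 of the 108 genes listed as lower were called lower in the main fit. Of 7 glial markers 2 were listed, both as lower: *wrapper* (3.03-fold) and *Mdr65* (2.64-fold), with a summed level of 20.9 to 22.8 RPKM after PTBI and 58.9 to 64.8 RPKM in controls. None of the 4 muscle markers was listed. The part of these shifts in the level of the Daisho and Baramicin genes was not tested.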

How the data were processed

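The members and gene lists were chosen with earlier results of these data known. Strand-specific mRNA libraries were read as single-end 50 bp reads; the authors mapped them with Subjunc (Subread, version not given in the sources used here) to a FlyBase genome of unstated release, counted them over genes and tested the genes with limma after voom. The deposited RPKM values of the authors cover just the genes called in that test. Their columns of average log2 expression, fold change, p value and adjusted p value were not used. Of 367 genes, 360 matched Ensembl 115 (BDGP6) by identifier and 7 by a RefSeq synonym (Release 6), among them *IMPPP*. RPKM, exon length and library size gave whole reads (within 0.02) in all samples for 363 genes.

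All 367 genes entered a fit of limma 3.58.1 (R 4.3.3) on log2(RPKM + 1) without a block, with Benjamini-Hochberg adjustment. Calls were made at an adjusted p under 0.05. Low genes are understated on this scale. The fit was tested on simulated data. Permutation tests were exact (scipy 1.17.1, Python 3.11.15). Folds are ratios of group means. The labels call the samples biological replicates. Same-numbered PTBI and uninjured samples deviated together weakly (correlations over the listed genes of 0.24, 0.12 and 0.16), which is a hint from the data alone. Named genes were the members, the extremes of each list, the 3 most similar genes and the nearest neighbours; some others, such as *Mdr65* and *BomS1*, were named after their values were seen. Alternatives were other pseudocounts (0.1 and 5), a minimum mean of 1 RPKM, centring, a replicate block, log2 CPM from recovered reads with 0.5 reads added, medians, each sample left out, and other lengths. No column of other samples was present.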

Additional observations from a re-analysis of the deposited data

How the results depend on the processing

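The 4 members kept their direction and an adjusted p under 0.05 (limma) in all 12 alternatives each, with a highest adjusted p of 0.00054. As the listed genes were selected by a test on these same samples, these calls are no independent evidence of a change. With the replicate block the adjusted p was 0.00044 for *Dso1* and *Dso2*, 0.00050 for *BaraA1* and 0.00046 for *IMPPP*, and the calls over the listed genes went from 248 to 247 higher and from 106 to 104 lower; for no member did the block change the call. Centring on sample medians gave 161 listed genes called higher and 126 called lower. Leaving out 1 sample moved the ratio of means of *Dso1* between 3.32 and 3.59, of *Dso2* between 4.27 and 4.87, of *BaraA1* between 4.34 and 5.45 and of *IMPPP* between 4.53 and 5.53. The log2 difference of *Dso2* over *BaraA1* then ran from -0.34 to 0.17 and that of *IMPPP* over *Dso2* from -0.11 to 0.37; the first turned positive without PTBI replicate 3 (0.17) or uninjured replicate 1 (0.02), the other negative without PTBI replicate 3 (-0.11). The other 4 pairs kept their direction. The part of depth in these values was not tested, and the RPKM of so short a gene as *Dso2* and the split between *IMPPP* and *BaraA1* are uncertain.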
